A study of Mus musculus with 6 samples.

Results

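The cytosolic ribosome is built from ribosomal RNA and a set of ribosomal proteins, and the genes described here are those that encode these proteins. They were chosen from the deposited table by symbol and biotype: protein-coding genes whose name begins with Rpl, Rps or Rplp and a number, without the S6 kinases and without names that carry the pseudogene suffix. The rule found 85 of the 54532 genes in the table. Of these, 49 belong to the large subunit, 32 to the small subunit and 3 to the P stalk (Rplp0, Rplp1 and Rplp2). The remaining gene is Rps19bp1, which matches by its symbol only and encodes a protein that binds Rps19 rather than a part of the ribosome. Their RNA was measured in MC3T3-E1 cells, an osteoblast precursor line from mouse that can mineralize when grown in osteogenic medium (OM). All 6 samples were kept in OM, whose additions include dexamethasone at 10 nM, for 3 days. The 3 control samples had OM alone and the 3 metformin samples had 0.2 mM metformin as well. Metformin is a biguanide that lowers blood glucose. The medium, the doses and the time are taken from the study's methods and text. The sample labels give neither dose nor time, and their titles name the groups only as nc and met. The line is a single cell line. The study describes its samples as biological replicates, but the labels do not say whether they came from separate cultures, so p-values measure the spread between these samples, which may be partly technical.

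Each ribosome holds a copy of nearly every ribosomal protein, so a cell makes these proteins in matched amounts, and proteins that find no place in a ribosome are degraded. Most of their messenger RNAs start with a C followed by a run of C and T bases, the terminal oligopyrimidine (TOP) motif, through which growth signals acting by the kinase mTOR raise or lower their translation with little change in RNA level. Bone-forming cells translate collagen and other matrix proteins in bulk, and metformin is known to restrain mTOR in many cell types. The data here are RNA levels only and hold no measure of translation.

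The values are FPKM, reads per gene scaled by gene length and library. Comparisons between different genes therefore depend on the listed lengths, such as 499 bases for Rplp1 and 6270 for Rps15a. The reads behind them could be recovered, and they came to between 18399861 and 22111790 per sample. Groups were compared by limma-trend on log2(FPKM + 1) with Benjamini-Hochberg adjustment over the 12681 genes with a mean of at least 0.5 FPKM, and a gene was called at an adjusted p-value under 0.05. Control replicate 1 stood apart from the other samples: across all tested genes its deviation from the other controls correlated with transcript GC content at a Spearman rho of -0.67. For ribosomal and translation genes named below whose call it changed, values without it are given as well. The osteoblast markers fixed as a check were all expressed, with summed levels of 10078 to 11832 FPKM in the controls and 6828 to 7222 FPKM with metformin. Of the 9, Col1a1 and Col1a2 were higher and Spp1, Ibsp and Dmp1 lower. All 6 cycling cell markers were higher with metformin, with sums of 18.2 to 28.7 FPKM in the controls and 140.2 to 147.2 FPKM with metformin. Markers of adipocytes summed to 1.65 to 3.08 FPKM over all samples, with Cidec at 0, and those of chondrocytes to 7.24 to 13.5 FPKM. Those of haematopoietic cells summed to 1.06 to 2.15 FPKM, with Hbb-bs at 0 and Cd68 called lower. Endothelial and skeletal muscle markers did not exceed 0.121 and 0.427 FPKM, with Myog at 0.

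Of the 85 genes, 81 passed the filter on low values and 3 of these were called with metformin: Rps20 was higher, and Rps10 and Rps19bp1 were lower. With all samples, 13.2% of all tested genes were called higher and 9.28% lower, against 1 and 2 of the 81. Without control replicate 1, 15 of the 81 were called higher and 4 lower, against 23.4% and 20.4% of all tested genes. At an unadjusted p-value under 0.05 there were 13 ribosomal protein genes, against 4540 of all 12681. The log2 fold changes ranged from -0.82 to 1.16 with a middle range from -0.02 to 0.27. Their median was 0.09, against 0.01 for all tested genes, and it turned to -0.02 when the samples were scaled by the reads outside the ribosomal protein and mitochondrially encoded genes, where the median of all genes was -0.08. For 66 of the 81 genes (81.5%) the 95% interval of the log2 fold change lay within 1 of 0, against 84.2% of all tested genes, and for 38 (46.9%) it lay within 0.5, against 41.2%. An absent call is therefore not evidence of an equal level for the wider intervals. In such bulk samples, fewer cells with a given RNA and less of it per cell cannot be told apart.

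**Figure D1:**
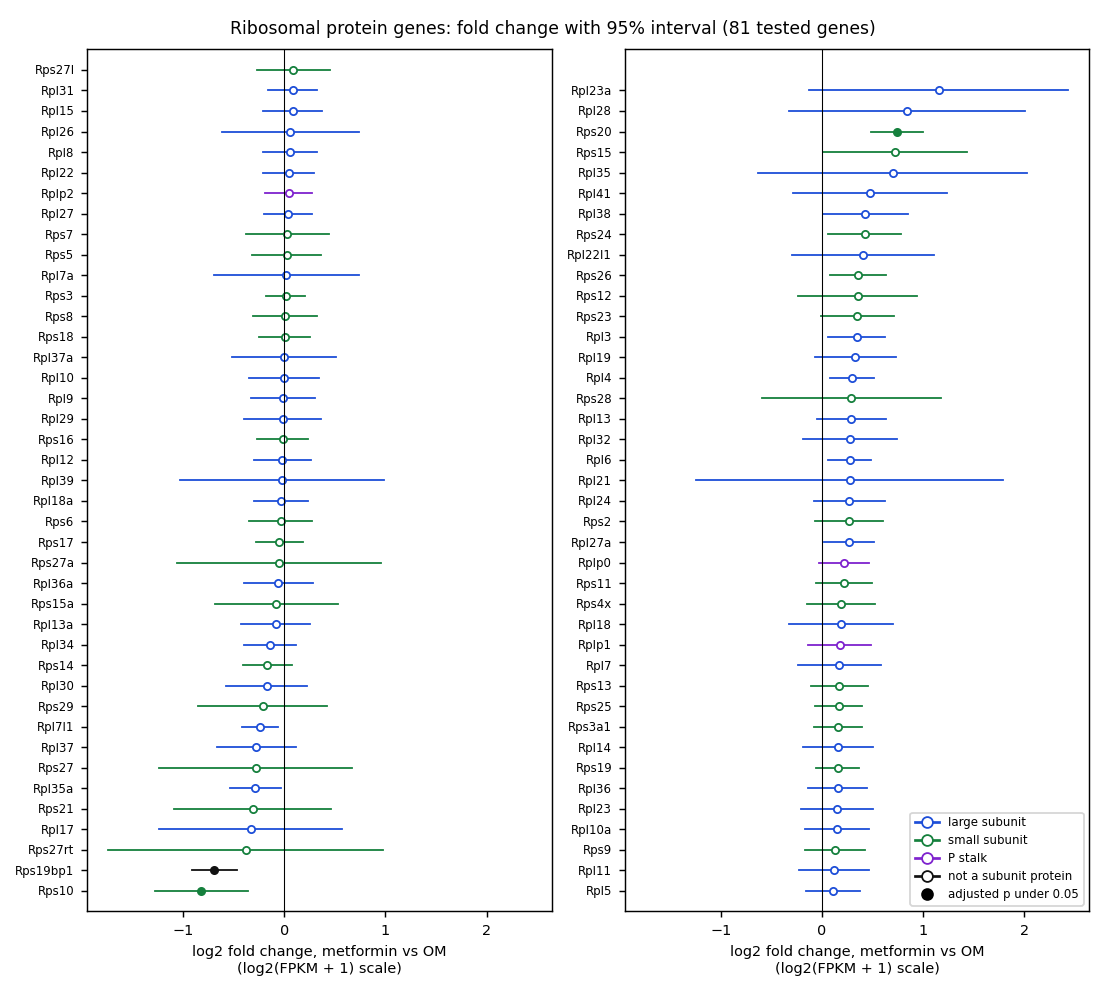
Each row is 1 of the 81 tested ribosomal protein genes, with its log2 fold change of metformin against OM on the log2(FPKM + 1) scale (point) and the 95% interval (line), n = 3 samples per group. Filled points are the 3 called genes, Rps10, Rps19bp1 and Rps20. Control replicate 1 differed from the other controls on the genes with the widest intervals, but other samples could be spread as well. Without it, the SE of Rpl35 went from 0.56 to 0.09, and that of Rpl21, the widest, from 0.64 to 0.53.

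**Figure D2:**
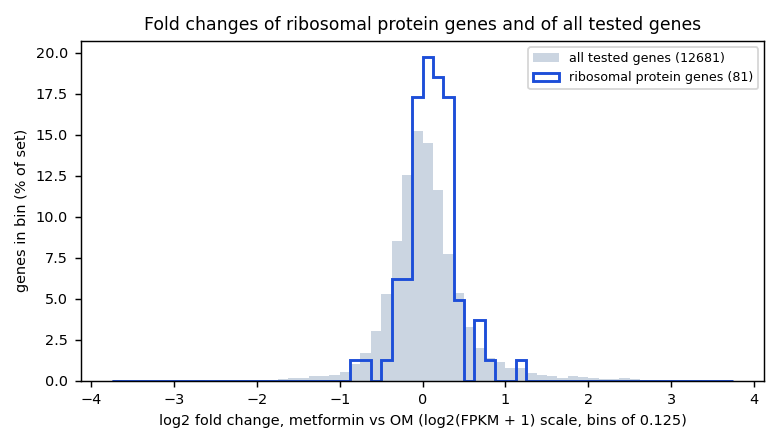
The share of genes (%) in each bin of log2 fold change, for the 81 tested ribosomal protein genes (line) and all 12681 tested genes (filled). The ribosomal protein genes lie between -0.82 and 1.16, inside the range of -3.66 to 3.35 of all tested genes.

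The groups did not overlap for 22 of the 81 genes. For 17 of them the metformin samples all lay above the controls, against 23.6% of all tested genes, and for 5 they all lay below, against 20.5%. Those below were Rpl35a, Rpl7l1, Rps14, Rps10 and Rps19bp1. The 17 genes above had log2 fold changes from 0.16 (Rps19) to 1.16 (Rpl23a). The other 59 genes had overlapping groups. By subunit, the median log2 fold change was 0.11 for the 45 tested large-subunit genes, of which 0 were called by limma-trend, 7 had an unadjusted p-value under 0.05 and 1 (Rpl4) was called by voom on the recovered reads. It was 0.06 for the 32 small-subunit genes, of which Rps20 and Rps10 were called and 5 had an unadjusted p-value under 0.05. Among these, voom called Rps20, Rps10 and Rps26. For the 3 P stalk genes it was 0.18, with 0 called by limma-trend or by voom and 0 with an unadjusted p-value under 0.05.

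Rps20, a protein of the head of the small subunit, was the only ribosomal protein gene called higher by limma-trend with all samples. Its levels were 142, 164 and 130 FPKM in the controls and 245, 244 and 240 FPKM with metformin. The metformin samples were tightly grouped and all above the highest control. The log2 fold change was 0.74 ± 0.11 (SE, n = 3 per group, 95% interval 0.48 to 1.00, adjusted p = 0.0041, limma-trend), a ratio of mean FPKM of 1.67. It was called in all 15 alternative fits, with log2 fold changes of 0.63 to 0.83. The gene lies on chromosome 4 from 3831334 to 3835665 on the minus strand, in the coordinates of the table. Its listed copy Gm4332, a processed pseudogene on chromosome 3 that shares 263 stretches of 50 bases with it, had 227, 193 and 140 FPKM in the controls and 258, 238 and 236 FPKM with metformin. The copy's samples did not overlap either, and its log2 fold change of 0.41 was not called (adjusted p = 0.153, limma-trend). Reads from the shared stretches could have been assigned to either gene.

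Rps19bp1 encodes a nucleolar protein that binds Rps19 and is also known as an activator of the deacetylase Sirt1. It fell from 24.4, 27.2 and 23.5 FPKM to 14.8, 14.2 and 16.3 FPKM, without overlap. The log2 fold change was -0.69 ± 0.09 (SE, adjusted p = 0.0032, limma-trend), and it was called in all 15 alternatives. It shares no stretch of 50 bases with another gene. Its partner Rps19, a small-subunit protein whose human counterpart is mutated in Diamond-Blackfan anaemia, had 93.5, 105 and 105 FPKM in the controls and 115, 112 and 111 FPKM with metformin. These samples did not overlap, and the log2 fold change of 0.16 was not called (adjusted p = 0.256, limma-trend).

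Rps10, a small-subunit protein, fell at a very low listed level. It had 1.78, 2.66 and 3.72 FPKM in the controls and 1.13, 0.91 and 1.13 FPKM with metformin, from 46 to 169 reads per sample. The 3 controls were spread widely, and all lay above the metformin samples. The log2 fold change was -0.82 ± 0.19 (SE, adjusted p = 0.0251, limma-trend), which understates the ratio of mean FPKM of 0.39 because 1 was added to each value. The call was kept in 10 of 15 alternatives. It was lost without control replicate 2 (adjusted p = 0.077, limma-trend), without metformin replicate 1 (0.079), 2 (0.099) or 3 (0.078), and with no filter on low values (0.072). The processed pseudogene Rps10-ps2 on chromosome 16, which shares 343 stretches of 50 bases with Rps10, was listed at 230, 284 and 245 FPKM in the controls and 268, 274 and 274 FPKM with metformin. The pseudogene thus carried a level of 262 FPKM over all samples against 1.89 FPKM for the gene itself, and its groups overlapped (log2 fold change 0.11). How the counting divided reads between them is not given in the sources used here, and the part of this division in the fall of Rps10 was not tested.

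**Figure D3:**
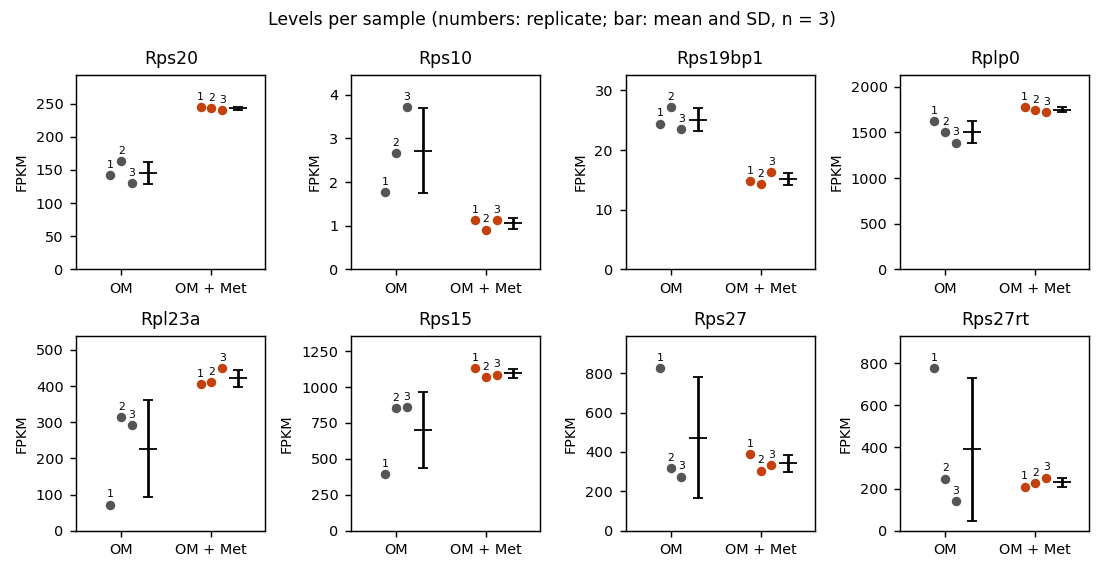
FPKM of 8 ribosomal protein genes in each sample (points numbered by replicate) with the group mean and SD (n = 3), for OM and OM with metformin. Rps20, Rps10, Rps19bp1, Rplp0, Rpl23a and Rps15 have separate groups, those of Rps27 and Rps27rt overlap, and control replicate 1 lies far from the other controls for Rpl23a, Rps15, Rps27 and Rps27rt.

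Copies of this kind are common in this gene family. Among the rows listed as pseudogenes, 1037 share at least 1 stretch of 50 bases with a ribosomal protein gene, and 80 of the 85 genes have such a row. Of these rows, 536 were at 0 in every sample and 28 had a mean of at least 50 FPKM. Of the 220 that were tested, 4 were higher and 2 lower, against 13.2% and 9.28% of all tested genes, with a median log2 fold change of 0.03. In FPKM, a pseudogene row stood above the gene itself for 8 genes: Rpl12, Rpl17, Rpl21, Rpl24, Rpl36al, Rps10, Rps20 and Rps28. FPKM divides by listed length, so a higher value need not mean more reads. The listed lengths were 4080 bases for Rps20 and 346 for its copy Gm4332, and 3598 for Rpl12 and 635 for Gm10275. The row Gm10275 on chromosome 10, a copy of Rpl12, had 410, 378 and 364 FPKM in the controls and 504, 517 and 493 FPKM with metformin. It was called higher (log2 fold change 0.39, adjusted p = 0.0254, limma-trend). Rpl12 itself had 209, 175 and 160 FPKM in the controls and 184, 174 and 175 FPKM with metformin, which overlapped (log2 fold change -0.02). The gene and its copy thus differed in listed level and in call.

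Levels of the ribosomal protein genes spread over a wide range, from 1.89 to 2127 FPKM among the 81 tested, with a median of 268 FPKM against 6.79 FPKM over all tested genes. The highest in FPKM was Rplp1, a P stalk protein that helps recruit elongation factors. It had 2315, 1941 and 1758 FPKM in the controls and 2338, 2208 and 2204 FPKM with metformin. Rplp0, the stalk base that anchors it, had 1625, 1503 and 1387 FPKM and then 1777, 1744 and 1724 FPKM. Its 3 metformin samples all lay above the controls (log2 fold change 0.22 ± 0.10, SE, adjusted p = 0.186, limma-trend). It was called higher at 0.28 without control replicate 1 (adjusted p = 0.044, limma-trend). Rplp2, the partner of Rplp1 in the stalk, was listed below both in each group, on a listed length of 2072 bases. It had 173 to 201 FPKM in the controls and 189 to 207 FPKM with metformin (log2 fold change 0.04). Rpl41, Rps2 and Rps3a1 completed the highest 5, with means of 1153, 1076 and 1061 FPKM. Rpl41 had 552, 1361 and 1090 FPKM in the controls and 1434, 1225 and 1259 FPKM with metformin, where control replicate 1 was the low sample. Its log2 fold change of 0.48 was 0.10 without that sample, and neither was called. The neighbours in this order overlap widely: the controls of Rps2 ran from 799 to 1078 FPKM and those of Rps3a1 from 926 to 1071 FPKM. Shorter genes were listed higher, with a Spearman correlation of -0.53 between mean FPKM and gene length over the 81 genes, which share these 6 libraries. Summed over the samples, Rplp1 had 127234 reads on a listed length of 499 bases, and Rplp0 had 324003 on 1659. An order by reads would thus differ from this one.

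At the low end stood Rps10, Rpl24 (4.26 FPKM), Rpl13a (12.1 FPKM), Rps19bp1 (20.1 FPKM) and Rpl21 (29.9 FPKM). Rpl24, a large-subunit protein, had 2.92, 4.44 and 4.001 FPKM in the controls and 4.06, 5.17 and 4.98 FPKM with metformin. Rpl13a, a large-subunit protein that is often used as a reference gene, had 10.3, 15.4 and 12.03 FPKM and then 11.1, 11.5 and 12.4 FPKM. Both overlapped between the groups. Rps10, Rpl24, Rpl13a and Rpl36al each overlap another annotated gene that shares part of their sequence, and these other genes were listed at 0 in every sample. Rpl21, a large-subunit protein, had 9.97, 50.4 and 23.3 FPKM in the controls and 56.9, 18.6 and 20.2 FPKM with metformin, and both groups spread over more than the difference between them. It shares stretches with 81 pseudogene rows, of which Rpl21-ps15 on chromosome X stood at 220 FPKM. The 4 genes that were not tested lay lower still: Rpl10l and Rpl3l, paralogs known from testis and from muscle, had 0 reads in every sample, Rpl39l had 1 read in metformin replicate 2, and Rpl36al had 6 to 20 reads per sample. At these depths a count of 0 allows up to 3 reads, which is 1.36e-05% to 1.63e-05% of a sample, for counting error only.

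Several members are paralogs of another, and their levels can be set beside those of the parent gene. Rpl22, a large-subunit protein, had 72.1, 62.3 and 56.7 FPKM in the controls and 65.6, 65.2 and 65.1 FPKM with metformin. Rpl22l1, its paralog, had 17.6, 41.6 and 35.5 FPKM and then 37.5, 38.8 and 42.7 FPKM. The ratio of Rpl22l1 to Rpl22 was 0.245, 0.668 and 0.626 in the controls and 0.572, 0.594 and 0.656 with metformin, so the low value was that of control replicate 1 and the other samples overlapped. The log2 fold change of Rpl22l1 was 0.40, and 0.04 without that sample. Rps27l, a small-subunit paralog regulated by p53, stood to Rps27 as 0.265, 0.574 and 0.544 in the controls and as 0.537, 0.603 and 0.556 with metformin, with the same sample low. Rpl7l1, related to Rpl7 and used in assembly of the large subunit, had 44.1, 43.8 and 46.0 FPKM in the controls and 37.6, 37.9 and 37.3 FPKM with metformin. Its groups did not overlap, and the log2 fold change of -0.24 ± 0.08 (SE) was not called (adjusted p = 0.063, limma-trend). Rpl7 had 240 to 385 FPKM in the controls and 336 to 339 FPKM with metformin. Without control replicate 1, Rpl7l1 was called lower (-0.25, adjusted p = 0.0094, limma-trend) and Rpl7 higher (0.35, adjusted p = 0.022). Rps4x, the X-linked copy of the small-subunit protein Rps4, had 738, 609 and 523 FPKM and then 707, 689 and 713 FPKM, and was called higher without that sample (0.32, adjusted p = 0.029, limma-trend).

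Several ribosomal proteins have roles beyond the ribosome. Rpl5 and Rpl11, which with 5S RNA bind Mdm2 and stabilise p53 when assembly is disturbed, had log2 fold changes of 0.11 (95% interval -0.16 to 0.38) and 0.12 (-0.23 to 0.47). Rps6, the substrate of the S6 kinases below mTOR, had 498, 423 and 365 FPKM in the controls and 423, 410 and 409 FPKM with metformin (log2 fold change -0.04, 95% interval -0.35 to 0.27). Rps3, which also acts in DNA repair, had 141, 138 and 132 FPKM and then 141, 136 and 136 FPKM (0.01, -0.18 to 0.21). Rpl10, a late-joining large-subunit protein, had 559, 438 and 388 FPKM and then 448, 464 and 453 FPKM. Rpl3, at the peptidyl transferase centre, had 222, 197 and 169 FPKM and then 249, 251 and 243 FPKM, with all metformin samples above (log2 fold change 0.34, adjusted p = 0.085, limma-trend, and 0.44, adjusted p = 0.0058, without control replicate 1). With all samples, none of these 6 genes was called by limma-trend or by voom, and among them Rpl3 alone had an interval that left out 0.

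The metformin samples agreed more closely with each other than the controls did. The median coefficient of variation of the 81 genes was 3.88% with metformin and 18.2% in the controls, and 10.8% over controls 2 and 3 alone. For all tested genes these values were 5.47%, 17.1% and 7.93%. Control replicate 1 lay outside the other 5 samples for 59 of the 81 genes, as the highest for 29 and the lowest for 30, and for 13 genes it differed more than 2-fold. Control replicate 3 lay outside for 45 genes and was the lowest for 43 of them. Control replicate 2 lay outside for 20 genes, and the metformin replicates for 20, 12 and 6 genes. The deviation of control replicate 1 from the other controls had a Spearman correlation of -0.19 with GC content over the 81 genes.

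**Figure D4:**
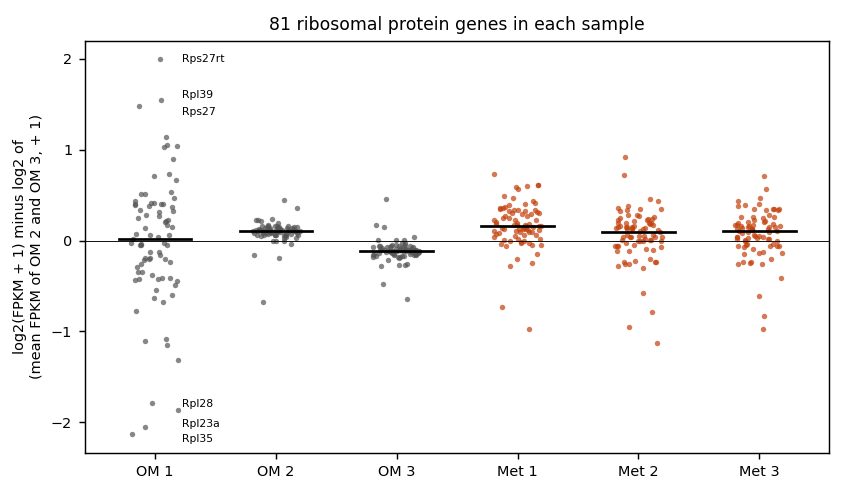
Each point is 1 of the 81 tested ribosomal protein genes in 1 sample, as its difference in log2(FPKM + 1) from log2 of 1 plus the mean FPKM of control replicates 2 and 3 (OM 2 and OM 3), and the bars are medians. OM 2 and OM 3 lie near 0 by construction, and OM 1 spreads widely in both directions, with 6 of its outlying genes named.

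Some of the largest deviations were downward. Rpl23a, a large-subunit protein at the exit of the peptide tunnel, had 72.4 FPKM in control replicate 1 and 314 and 293 FPKM in the other controls, against 405, 411 and 449 FPKM with metformin. All metformin samples lay above the controls, and the log2 fold change of 1.16 ± 0.54 (SE) was not called (adjusted p = 0.176, limma-trend). Without control replicate 1 it was 0.47 ± 0.08 (SE, adjusted p = 0.0039, limma-trend). Rpl35, its neighbour at the tunnel exit, had 73.9, 350 and 302 FPKM and then 349, 312 and 312 FPKM. Its log2 fold change of 0.70 turned to -0.01 without that sample. Rpl28, a large-subunit protein, had 64.2, 253 and 219 FPKM in the controls and 289, 269 and 267 FPKM with metformin. Its log2 fold change was 0.84, and 0.22 without that sample (adjusted p = 0.266 and 0.073, limma-trend). The copy Rpl28-ps1 showed the low sample as well, with 14.2, 63.0 and 54.6 FPKM in the controls and 58.9, 64.7 and 62.9 FPKM with metformin.

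The opposite deviation occurred in Rps27, a zinc-binding small-subunit protein, which had 824, 317 and 274 FPKM in the controls and 389, 305 and 334 FPKM with metformin. Rps27rt, a retrotransposed copy of it inside Osbpl10 on chromosome 9, had 777, 250 and 140 FPKM and then 211, 227 and 254 FPKM. Since 91.1% of the stretches of 50 bases in Rps27rt also occur in Rps27, reads of the pair could be split between them. The log2 fold changes of -0.29 (Rps27) and -0.38 (Rps27rt) turned to 0.21 and 0.30 without control replicate 1, and none of these was called. Rpl39, a small protein of the tunnel wall, had 617, 241 and 182 FPKM and then 324, 271 and 294 FPKM. Its log2 fold change was -0.02, and 0.50 without that sample, where it was called higher (adjusted p = 0.027, limma-trend). Rps15, a small-subunit protein in contact with the large subunit, was low in it, with 397, 852 and 860 FPKM in the controls and 1130, 1070 and 1086 FPKM with metformin (log2 fold change 0.72, adjusted p = 0.134, limma-trend, and 0.36, adjusted p = 0.0108, without control replicate 1).

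Without control replicate 1, 15 ribosomal protein genes were called higher and 4 lower, in place of 1 and 2, and over all tested genes 23.4% were called higher and 20.4% lower. The 4 lower genes were Rps10, Rps19bp1, Rpl7l1 and Rps14. Rps14 had 479, 571 and 528 FPKM in the controls and 478, 460 and 463 FPKM with metformin. Its log2 fold change was -0.17 with all samples and -0.23 without control replicate 1 (adjusted p = 0.289 and 0.038, limma-trend). The 15 higher genes included Rps20, Rpl23a, Rps15, Rpl3, Rpl4, Rps26 and Rplp0. Rpl4, a large-subunit protein of the tunnel, had 480, 445 and 429 FPKM in the controls and 544, 557 and 557 FPKM with metformin. Rps26, a small-subunit protein at the messenger RNA exit, had 505, 501 and 411 FPKM and then 629, 579 and 598 FPKM. Their log2 fold changes without control replicate 1 were 0.34 and 0.41, and the median over the 81 genes was 0.13 with a median SE of 0.09 in place of 0.14. In that fit, Rpl23a at 0.47, Rpl39 at 0.50, Rps12 at 0.59 and Rps20 at 0.73 were the 4 highest values among the called genes. Rps12 had 275, 182 and 155 FPKM in the controls and 237, 319 and 214 FPKM with metformin. With all samples its log2 fold change was 0.35 (adjusted p = 0.352, and 0.034 without control replicate 1, limma-trend). Rpl26 had 596, 313 and 269 FPKM in the controls and 377, 380 and 395 FPKM with metformin. Its log2 fold change was 0.06 with all samples and 0.40 without control replicate 1 (adjusted p = 0.910 and 0.0099, limma-trend).

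Summed over all 85 genes, ribosomal protein RNA took 4.25%, 4.41% and 3.99% of the recovered reads in the controls and 4.70%, 4.42% and 4.53% with metformin. The metformin samples lay above all controls, with 4.42% against 4.41% for the closest pair. The share of mitochondrially encoded genes moved the other way in these libraries, from 10.01%, 8.37% and 6.36% to 2.72%, 2.79% and 3.16%. As a share of the reads of nuclear-encoded genes, the ribosomal protein genes took 4.72%, 4.82% and 4.27% in the controls and 4.83%, 4.55% and 4.68% with metformin, and the groups overlapped. The difference between group means was 0.33 percentage points of all reads and 0.08 percentage points of nuclear-encoded reads. The ratio of summed FPKM of the large subunit to the small subunit was 1.01, 1.25 and 1.21 in the controls and 1.22, 1.19 and 1.19 with metformin, with control replicate 1 as the low sample.

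**Figure D5:**
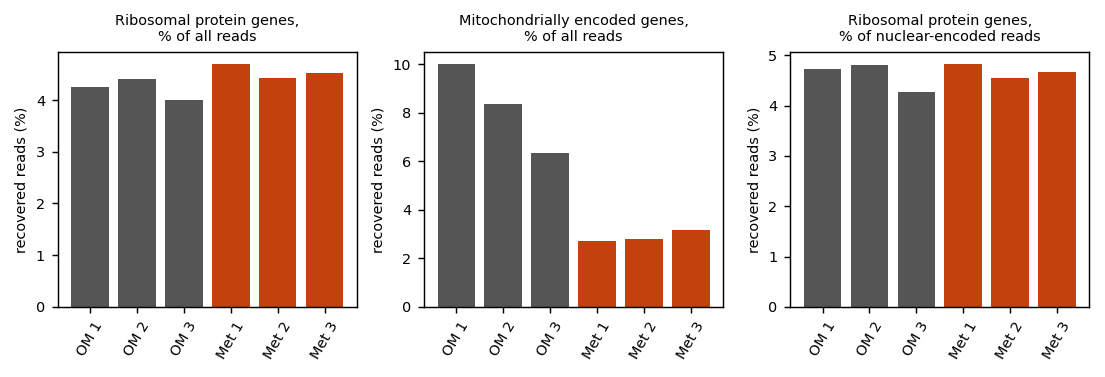
Percent of recovered reads per sample (bars from 0) in ribosomal protein genes and in mitochondrially encoded genes, both of all reads, and in ribosomal protein genes of nuclear-encoded reads. The first share is 3.99% to 4.41% in OM and 4.42% to 4.70% with metformin, the mitochondrially encoded share is 6.36% to 10.01% and 2.72% to 3.16%, and the last overlaps between the groups.

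The start of the transcript is a feature that the choice of genes did not use. RefSeq promoter entries (GRCm38.p6) were found for 65 of the 85 genes. A C at the listed start followed by at least 4 bases that are C or T, read on the gene's own strand only, was present in 14 of them (21.5%), against 813 of 27025 genes with an entry (3.01%). Allowing the run to begin within 5 bases of the listed start gave 30 genes (46.2%) against 21.2%. A listed start can be off by some bases, and the absence of a run says only that these letters are not at this place. The starts below run from 10 bases before the listed start to the 20th base of the transcript, with the run in capitals. Rps6 is shown as the S6 kinase substrate, Rps10 and Rps19bp1 as called genes, Rpl35 and Rpl28 as genes that were low in control replicate 1, and Rps27 with Rps27rt as the gene and copy that were high in it.
Rps6 (chr4:86857348-86857377, minus strand): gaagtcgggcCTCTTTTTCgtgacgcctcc
Rps10 (chr17:27635225-27635254, minus strand): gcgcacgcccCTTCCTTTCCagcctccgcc
Rpl35 (chr2:39005112-39005141, minus strand): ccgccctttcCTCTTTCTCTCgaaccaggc
Rpl28 (chr7:4792955-4792984, plus strand): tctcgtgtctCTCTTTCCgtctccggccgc
Rps27 (chr3:90213629-90213658, minus strand): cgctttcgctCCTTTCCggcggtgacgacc
Rps27rt (chr9:114982720-114982749, minus strand): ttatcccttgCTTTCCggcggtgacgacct
Rps19bp1 (chr15:80264287-80264316, minus strand): cggaagtagctcgccgcgtgtgggcggggc
Rps19bp1 has no such run at its listed start, unlike the 6 others shown. These 7 do not stand for the 65 genes, of which 21.5% had a run. Rps15, Rpl41, Rpl22l1 and Rps28, also low in control replicate 1, and Rpl26 and Rpl39, also high in it, have no run there. Rps21, also high in it, has a run. Among these 7, genes with a run included Rps10, which fell, Rps6, whose groups overlapped, and Rpl35 and Rpl28, which were not called. Rps20 and Rpl23a had no entry.

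Other transcripts known to carry a TOP motif were listed as well. Of these 7, 4 were higher and 1 was lower, against 13.2% and 9.28% of all tested genes, with a median log2 fold change of 0.47. The 4 higher ones are messenger RNAs. Vim, the intermediate filament vimentin, had 483, 461 and 398 FPKM in the controls and 770, 754 and 715 FPKM with metformin (0.74, adjusted p = 0.004, limma-trend). Hnrnpa1, a splicing factor, rose by 0.67 on the log2 scale and Nap1l1, a histone chaperone, by 0.58. Gas5 and Snhg1 are noncoding snoRNA host transcripts, and both lay below the controls without overlap. Snhg1 fell by 0.52 on the log2 scale, and Gas5 had -0.37 (adjusted p = 0.077, limma-trend), which was -0.45 and called lower without control replicate 1. Of the 5 genes of TOP control, 0 were called by limma-trend or by voom and 2 had an unadjusted p-value under 0.05. Larp1, which binds the TOP motif and represses its translation, had 21.6, 27.0 and 32.4 FPKM and then 35.6, 37.9 and 35.8 FPKM, without overlap (log2 fold change 0.44, adjusted p = 0.078, limma-trend). Leaving out control replicate 1, it was called higher at 0.29 (adjusted p = 0.032, limma-trend). In that fit 1 gene of this list was higher and 2 were lower, against 23.4% and 20.4% of all tested genes. Of the 3 other ribosomal components listed, Rpsa, Fau and Rack1, 0 were called by limma-trend or by voom and 1 had an unadjusted p-value under 0.05. Rpsa, the small-subunit protein also known as the laminin receptor, had 436, 371 and 352 FPKM and then 490, 472 and 470 FPKM (0.31, adjusted p = 0.091, limma-trend). It was called higher at 0.40 without control replicate 1 (adjusted p = 0.0040, limma-trend). Fau (-0.15), whose product is fused to a ubiquitin-like protein, and the scaffold protein Rack1 (0.06) overlapped between the groups.

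Of 30 translation initiation genes 1 was higher and 2 were lower, 3 of 30 in all, against 22.5% of all tested genes called either way. These counts were 7 and 4 without control replicate 1, where 23.4% of all tested genes were called higher and 20.4% lower. Eif4a1, the RNA helicase of the cap-binding complex, had 91.4, 104 and 100 FPKM in the controls and 135, 137 and 132 FPKM with metformin (log2 fold change 0.44, adjusted p = 0.014, limma-trend). Its paralog Eif4a2 had 46.0, 42.8 and 36.9 FPKM and then 27.6, 25.7 and 29.1 FPKM (-0.59, adjusted p = 0.010, limma-trend), and Eif3d, a cap-binding subunit of initiation factor 3, fell by 0.41. Of 11 tested genes of elongation and termination 2 were higher and 0 lower (18.2%), and 5 and 0 without control replicate 1. Eef1a1, which brings aminoacyl-tRNA to the ribosome, had 1636, 1758 and 1580 FPKM and then 2175, 2263 and 2190 FPKM (0.41), and Gspt1, a release factor, rose by 0.32. Eef1a2 was at 0. Of 10 tested chaperones of nascent chains and ribosomal proteins, 1 was called (10%), against 22.5% of all tested genes. It was Hspa14, a ribosome-bound Hsp70, which was higher (0.50), and Pdcd2 was at 0. Leaving out control replicate 1, 3 of the 10 were higher and 1 was lower.

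Of 24 ribosome biogenesis genes, 2 were higher and 0 lower (8.33% called, against 22.5% of all tested genes), with a median log2 fold change of 0.11. The counts were 6 and 1 without control replicate 1, where 23.4% of all tested genes were called higher and 20.4% lower. Myc, a transcription factor that drives many of them, had 28.0, 41.1 and 44.3 FPKM in the controls and 74.96, 68.3 and 64.6 FPKM with metformin (0.88 ± 0.18, SE, adjusted p = 0.014, limma-trend). Ncl, the nucleolar protein nucleolin, rose by 0.44. Mitochondrial ribosomal proteins form the separate ribosome inside mitochondria. Their genes were taken by symbol only, so a gene listed here, Mrps36 included, need not encode a part of that ribosome. Of this list, 1 was higher and 4 were lower of 77 tested (6.49%), with a median log2 fold change of -0.02. The counts were 5 and 17 of these 77 without control replicate 1, against the same 23.4% and 20.4% of all tested genes. Mrps36 was higher (0.51), and Mrpl38 (-0.60) and Mrpl9 (-0.58) were lower. The summed levels of the mitochondrial ribosomal proteins were 1072 to 1342 FPKM in the controls and 1180 to 1217 FPKM with metformin, inside the range of the controls. The part of the higher cycling cell markers and of the lower mitochondrially encoded share in these values was not tested.

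Introns of ribosomal protein genes often hold small nucleolar RNAs (snoRNAs), which guide the modification of ribosomal RNA. An annotated snoRNA lay within 29 of the 85 genes, among them Rps20, Rpl23a, Rpl4 and Rpl3. Of these 29, 1 was called (Rps20), and for 9 the metformin samples all lay above the controls and for 0 all below. Of the 52 tested genes without one, 2 were called, with 8 above and 5 below. Over all tested genes 22.5% were called, 23.6% lay above and 20.5% below. The median log2 fold changes were 0.15 and 0.08. By shared sequence, the 19 tested genes with under 25% of their stretches of 50 bases in another gene had a median of 0.04 and 2 calls (Rps20 and Rps19bp1), and the 62 with more had a median of 0.13 and 1 call (Rps10). Over the 81 genes, the log2 fold change had Spearman correlations of 0.10 with the share of such stretches and of -0.06 with GC content.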

How the data were processed

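RNA of 6 MC3T3-E1 samples was sequenced from TruSeq libraries, and the authors deposited 1 table of FPKM values with gene lengths, coordinates and biotypes. The table names no unit: multiplied by gene length and divided by 1 factor per sample, found from the values, 100% of them were whole (tolerance 0.001). These whole numbers were taken as reads. On the FPKM scale the factors imply library sizes close to the summed reads, so the deposited values were taken as FPKM. The authors tested with DESeq2. The submitters' processing notes name Bowtie 0.12.2, mm8 and mm9, while 83 of the 85 genes have the coordinates of GENCODE M21 (GRCm38). Strand, counting tool and treatment of multiply mapped reads are not given in the sources used here. The table holds 0 per-sample columns beyond these 6 samples.

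The planned count model was not used because the table holds no counts. Groups were compared with limma 3.58.1 (trend) in R 4.3.3 on log2(FPKM + 1), mean FPKM at least 0.5, with Benjamini-Hochberg adjustment. The fit was tested on simulated data. Sharing of sequence was counted over all stretches of 50 bases of the GENCODE M21 transcripts of each gene, on which GC content was also computed (longest transcript). Alternatives were a pseudocount of 0.1, 2 other scalings, 2 other filters, voom on recovered reads, a replicate block, a GC correction (spline, 5 degrees of freedom), both together, and leaving out each sample. The samples share replicate numbers, but same-numbered samples did not deviate together.

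The genes and lists were chosen with earlier results of these data known. Named were called genes, the highest and lowest 5, paralogs with their parents, the P stalk, genes with known further roles, and up to 3 called genes per list. Rpl23a, Rpl35, Rpl28, Rps15, Rpl4, Rps26, Rpl35a, the other genes without overlap or called without control replicate 1, Gas5, Snhg1 and the pseudogene rows were chosen after their values were seen. Protein sequences were not used here. A result for 1 listed gene is not reported here.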

Additional observations from a re-analysis of the deposited data

How the results depend on the processing

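Rps20 and Rps19bp1 were called under every alternative, and no called gene among those named changed direction. The number of ribosomal protein genes called higher was 1, and 3 with voom on recovered reads, 2 with the GC correction, 2 with the GC correction and the replicate block, and 1 to 15 when single samples were left out. The number lower was 2, and 4 with scaling by reads outside the ribosomal protein and mitochondrially encoded genes, 4 with the GC correction, 5 with both the correction and the block, and 1 to 4 with single samples left out. Over all tested genes, leaving out single samples gave 938 to 2969 higher and 495 to 2590 lower, and the number lower was 1843 with that scaling, 2433 with the GC correction and 1888 with correction and block. The median log2 fold change of the ribosomal protein genes was -0.021 with that scaling, and 0.047 to 0.15 with single samples left out. The difference in their share was 0.082 percentage points of nuclear-encoded reads (chosen after seeing the data). It was 0.22 to 0.43 percentage points of all reads with single samples left out. Their reads as a percent of the reads used for that scaling, a total without their own, differed by 0.090. The causes were not tested.

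Same-numbered samples did not deviate together (correlations of deviations -0.053, 0.00027 and -0.055). With 3 samples per group and control replicate 1 standing apart, these values cannot show whether the cultures were paired. With the replicate block 1161 genes were higher and 698 lower, and the ribosomal protein genes called were again 1 and 2. Under the block, 1 initiation gene, 0 elongation genes, 3 other TOP transcripts, 1 biogenesis gene and 2 mitochondrial ribosomal proteins were called, in place of 3, 2, 5, 2 and 5.

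For the same lists, that scaling gave 0 elongation, 1 TOP control, 2 chaperone, 4 biogenesis and 11 mitochondrial ribosomal protein calls. The GC correction gave 5, 3, 2, 6 and 17, and with the block 1 elongation, 1 TOP control, 4 biogenesis and 10 mitochondrial calls. Scaling by total reads gave 2 chaperone calls, no filter 1 elongation and 2 mitochondrial calls, and at least 10 reads in every sample 1 elongation call. With single samples left out, calls were 0 to 11 (initiation), 0 to 5 (elongation), 0 to 1 (other components), 3 to 6 (other TOP), 0 to 3 (TOP control), 0 to 4 (chaperones), 0 to 7 (biogenesis) and 2 to 22 (mitochondrial).

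Log2 fold changes of some genes not called with all samples turned sign. With that scaling these were Rack1 (-0.051), Rpl22 (-0.065), Rplp2 (-0.068), Rps27l (-0.021) and Rps3 (-0.097). With the GC correction, with or without the block, they were Rack1 (-0.010), Rpl22 (-0.020), Rplp2 (-0.011) and Rps3 (-0.059), and with total reads Rps3 (-0.016). With single samples left out, the ranges that crossed 0 were -0.12 to 0.14 for Rpl10, -0.015 to 0.25 for Rpl11, -0.21 to 0.057 for Rpl13a, -0.29 to 0.82 for Rpl21, -0.036 to 0.13 for Rpl22, -0.0080 to 1.11 for Rpl35, -0.19 to 0.076 for Rpl36a, -0.38 to 0.50 for Rpl39, -0.025 to 0.080 for Rplp2, -0.58 to 0.21 for Rps27, -0.051 to 0.22 for Rps27l, -0.93 to 0.30 for Rps27rt, -0.015 to 0.033 for Rps3 and -0.15 to 0.077 for Rps6. Of these, Rpl39 was called higher without control replicate 1 (0.50). Rps10 and Rpl24 rest on 46 to 169 and 55 to 116 reads per sample.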
